A study of Rattus norvegicus with 9 samples.

Results

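The rat alpha-macroglobulin genes A2m, Mug1 and Mug1l1, were followed across adult and fetal liver cells. They are 3 of the 14497 genes that the array annotation tied to a single symbol, and each was read by 1 probe set. They were chosen by their measured log2 intensities in all 3 groups, A2m being high in fetal cells and both Mug genes in adult cells, so their levels in all 3 groups are given as a description, with no test. A2m encodes a very large plasma protein that offers proteases a bait stretch, folds around the protease that cuts it and is then taken up by the receptor Lrp1. In rats it is known as a protein of the fetal liver that is scarce in healthy adult plasma and returns in inflammation. Mug1 and Mug1l1 encode murinoglobulins, single-chain relatives found in rodents that are abundant in adult plasma and decline in inflammation.

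RNA came from liver cells of F344 rats and was hybridised to 9 Affymetrix Rat ST 1.0 arrays, 3 per group. Adult hepatocytes came from rats of 5 to 6 weeks after collagenase perfusion in a pair of steps. Fetal cells of embryonic day 19 were released with collagenase and selected with antibodies to leucine aminopeptidase (LAP), a surface marker of hepatic cells, and to OC.2, a ductal marker. The titles divide them into LAP+/OC.2- cells (OC.2- below) and LAP+/OC.2+ cells (OC.2+ below), although the isolation text gives both the same double positive selection while the description field of the OC.2+ preparations gives LAP-. Titles call the preparations biological replicates, no treatment or altered gene is named, and the sources used here do not state whether animals were pooled. Correlations of log2 intensity within a group were 0.986 to 0.992. Median intensity was 79.5 to 81.0 on adult, 86.5 to 89.7 on OC.2- and 87.7 to 88.9 on OC.2+ arrays, and no detection call came with the values. Mean log2 intensity over the 11 measured of 12 hepatocyte markers was 12.05 to 12.16 on adult, 12.13 to 12.29 on OC.2- and 10.39 to 10.56 on OC.2+ arrays. That list includes the fetal gene Afp. The highest log2 difference from adult on the list was 6.52 in OC.2- and 5.65 in OC.2+ cells, against medians of -0.14 and -1.89. The fetal means are therefore pulled up by the highest gene. On adult, OC.2- and OC.2+ arrays, mean log2 intensity over 11 granulocyte markers was 5.63 to 5.74, 5.80 to 5.92 and 9.44 to 9.53. Over 9 red-cell precursor markers it was 6.19 to 6.32, 9.42 to 9.61 and 11.15 to 11.23. Both fetal groups thus carried red-cell precursor RNA beside hepatocyte RNA, with all 9 of these markers higher in OC.2- relative to adult cells (median log2 difference 2.50), and OC.2+ cells also carried granulocyte RNA. Markers of other liver cells were higher in OC.2- relative to adult cells too, with 9 of 9 measured endothelial (median 1.80), 10 of 12 stellate and mesenchymal (median 0.95) and 8 of 11 macrophage markers (median 1.20) called higher, against 23.7% of all genes. The part of these cells in the results below was not tested. In such mixed preparations, fewer cells of a type and less RNA per cell cannot be told apart.

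The genes lie side by side. In the RefSeq gene order of chromosome 4 (assembly GRCr8), A2m is followed by Mug1l1, Mug1 and a further murinoglobulin gene, Mug2, with only pseudogenes and a non-coding RNA gene between them. Pzp, which encodes the alpha-macroglobulin that adult rats make steadily (synonym A1m), lies farther along the same chromosome, 198 annotated entries after Mug1. The start regions of the murinoglobulin genes are shown because these genes move together in the data below while being neighbours of a gene that moves the other way. Each runs from 250 bases before to 50 after the RefSeq start, is from GRCr8 and reads 5′ to 3′ on the plus strand, and capitals mark the longest unbroken stretch that all 3 share.
Mug1l1 (chr4:156652123-156652422): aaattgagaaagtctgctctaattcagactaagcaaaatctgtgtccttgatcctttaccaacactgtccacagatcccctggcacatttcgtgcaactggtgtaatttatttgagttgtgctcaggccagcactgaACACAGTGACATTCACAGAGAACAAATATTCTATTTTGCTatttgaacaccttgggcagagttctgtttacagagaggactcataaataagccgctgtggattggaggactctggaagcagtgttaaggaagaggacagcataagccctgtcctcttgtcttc
Mug1 (chr4:156748145-156748444): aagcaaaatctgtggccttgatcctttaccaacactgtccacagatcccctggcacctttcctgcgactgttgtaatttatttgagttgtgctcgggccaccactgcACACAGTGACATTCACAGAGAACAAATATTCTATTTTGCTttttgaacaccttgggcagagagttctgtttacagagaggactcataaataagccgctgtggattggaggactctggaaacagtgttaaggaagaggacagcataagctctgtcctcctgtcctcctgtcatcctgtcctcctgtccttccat
Mug2 (chr4:156835905-156836204): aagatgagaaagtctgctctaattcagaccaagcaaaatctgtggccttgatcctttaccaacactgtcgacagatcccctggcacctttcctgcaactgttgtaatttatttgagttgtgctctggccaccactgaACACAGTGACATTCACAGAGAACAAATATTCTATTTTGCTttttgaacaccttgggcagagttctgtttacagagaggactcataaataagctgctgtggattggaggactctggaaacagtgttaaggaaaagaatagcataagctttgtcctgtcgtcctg
The shared stretch is 40 bases long and starts 113 bases before the gene start in Mug1l1 and Mug2 and 143 bases before it in Mug1. It was found on either strand in 3 of the 33469 start regions searched, those of these genes. Because the stretch was taken from these near-copy regions, that count is no test of a shared element. The start region of A2m was not among those searched and is not shown. In local alignment the Mug1l1 region was 94.5% identical to that of Mug1 over 272 positions and 93.9% identical to that of Mug2 over 293, and Mug1 and Mug2 were 94.5% identical over 275. Pzp aligned with them over at most 100 positions, at 60.2% to 63.5% identity. Motifs were searched on both strands, and 4 are given with their share of all start regions. The forkhead motif TGTTTAC, held by 3.78% of all start regions, began at position -49 in Mug1l1 and Mug2 and -77 in Mug1, counted back from the start. The TATA-like ATAAATA, held by 6.09%, began at -31 in Mug1l1 and Mug2 and -59 in Mug1. These motifs do not overlap each other. The STAT motif TTCNNNGAA (8.87% of regions) and the acute-phase core CTGGGAA (11.3%) were not in these windows, and none of the 4 motifs was in the window of Pzp. A longer HNF1 motif was searched in an earlier run and was in none of the murinoglobulin windows shown. Its share of all start regions is not given, so nothing is read from that. A match describes letters, not a bound site.

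A2m was high in fetal cells and low in adult hepatocytes. Its intensity was 101, 121 and 95.5 on the adult arrays, 7511, 7561 and 7151 on the OC.2- arrays and 1354, 1231 and 1231 on the OC.2+ arrays. The groups kept apart in the order adult, OC.2+, OC.2-, and the adult values were not far above the array median. Mean log2 intensity was 6.72 ± 0.18 (SD, n = 3) in adult, 10.31 ± 0.08 in OC.2+ and 12.85 ± 0.04 in OC.2- cells. The log2 difference from adult was 6.13 ± 0.09 (SE) in OC.2- cells, a 70.2-fold higher level, and 3.59 ± 0.09 in OC.2+ cells, 12-fold higher. A2m stood at rank 7 from the highest of all 14497 log2 differences in OC.2- cells and at rank 82 in OC.2+ cells. OC.2+ cells held 5.83-fold less than OC.2- cells, a log2 difference of -2.54 ± 0.09. The values of OC.2+ replicates 2 and 3 were identical to the last deposited digit, as were 2.89% to 6.64% of the values in each of the 36 pairs of arrays, so spreads close to 0 in a group of 3 are not a measure of precision.

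Mug1 ran the other way. Its intensity was 8211, 6865 and 7741 on the adult arrays, 100.4, 106 and 74.9 on the OC.2- arrays and 47.9, 60.5 and 55.0 on the OC.2+ arrays. All adult values lay far above all fetal ones, and the OC.2+ values and that of OC.2- replicate 3 lay under the median of their arrays. Mean log2 intensity was 12.89 ± 0.13 (SD, n = 3) in adult, 6.54 ± 0.27 in OC.2- and 5.76 ± 0.17 in OC.2+ cells. Against adult hepatocytes Mug1 was 81.7-fold lower in OC.2- cells (log2 difference -6.35 ± 0.13) and 140-fold lower in OC.2+ cells (-7.13 ± 0.13), ranks 12 and 4 from the lowest of all genes. Between the fetal groups it was 1.71-fold lower in OC.2+ cells (-0.78 ± 0.13).

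Mug1l1 followed Mug1 closely. Its intensity was 14021, 11916 and 12117 on the adult arrays, 134, 180 and 117 on the OC.2- arrays and 82.4, 103 and 117 on the OC.2+ arrays. The fetal groups nearly touched, since the highest OC.2+ and the lowest OC.2- value were both 117, and OC.2+ replicate 1 lay under its array median. Mean log2 intensity was 13.63 ± 0.13 (SD, n = 3) in adult, 7.14 ± 0.32 in OC.2- and 6.64 ± 0.26 in OC.2+ cells. It was 89.5-fold lower in OC.2- (log2 difference -6.48 ± 0.16) and 127-fold lower in OC.2+ cells (-6.98 ± 0.16) than in adult hepatocytes, ranks 9 and 6 from the lowest. The difference between the fetal groups was -0.50 ± 0.16, above the SD of either group. Within the adult group, replicate 2 had the lowest value of both Mug genes and the highest value of A2m. For Mug1l1 it was close to replicate 3, and adult A2m was not far above the array median. The Mug genes may also share signal, so nothing is read from this array.

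For each of the 3 genes, all arrays of one group lay on one side of all arrays of the other in every comparison. That held for 51.4% of all genes in OC.2- against adult cells, 62.2% in OC.2+ against adult cells and 46.5% in OC.2+ against OC.2- cells, and nothing is read from it here. Signal of Mug1, Mug1l1 and Mug2 may be shared, because their sequences are near copies and the probe sequences were not used here. With no detection call, folds of dim genes may be understated and cannot show whether the low group made any of the RNA. The comparisons also share arrays: both fetal groups were set against the same adult arrays.

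**Figure D1:**
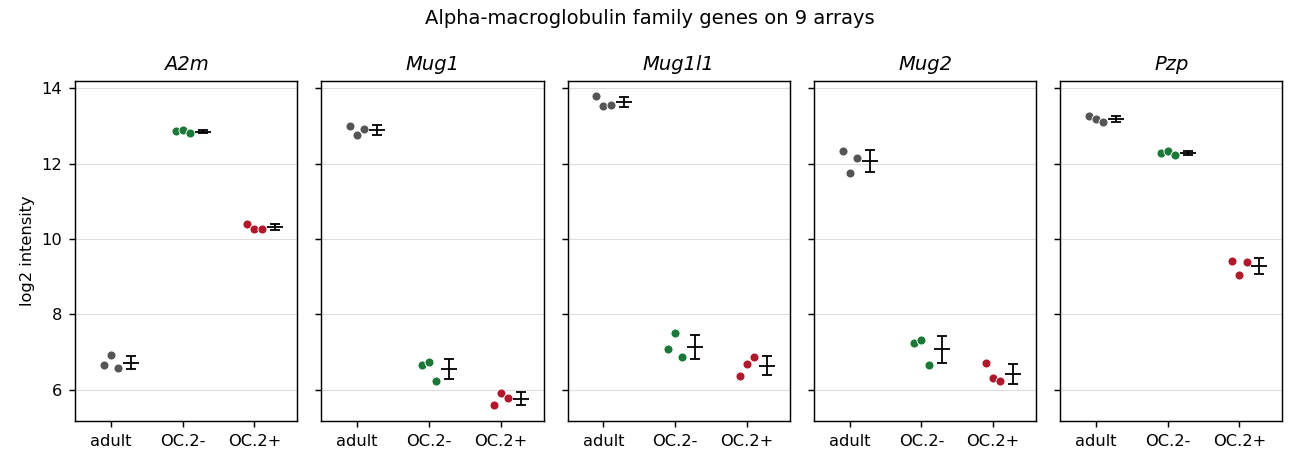
Log2 intensity (vertical axis) of A2m, Mug1, Mug1l1, Mug2 and Pzp on each of the 9 arrays, with points for arrays of adult (grey), OC.2- (green) and OC.2+ (red) cells, and bars for the mean ± SD of 3 arrays. A2m is lowest in adult cells at a mean of 6.72 and highest in OC.2- cells at 12.85, the 3 Mug genes are high only in adult cells, and Pzp is high in adult and OC.2- cells at 13.18 and 12.28.

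Among other genes of the alpha-macroglobulin family, 3 of the 10 listed had a single-gene probe set, and all 3 were lower in every comparison. Genes called lower at limma adjusted p under 0.05 made up 20.9% of all genes in OC.2- against adult cells, 23.4% in OC.2+ against adult cells and 18.2% in OC.2+ against OC.2- cells. Mug2 read 5105, 3428 and 4538 on adult, 151, 159 and 100.4 on OC.2- and 105, 78.8 and 74.7 on OC.2+ arrays, so the adult arrays stood far apart and the fetal groups overlapped. It was 32.1-fold lower in OC.2- (log2 difference -5.00 ± 0.19, adjusted p = 2.88e-10) and 50.5-fold lower in OC.2+ cells (-5.66 ± 0.19, adjusted p = 2.72e-11) than in adult cells. Between the fetal groups the difference was -0.65 ± 0.19 (adjusted p = 0.0144), and leaving out either of OC.2+ replicates 2 and 3 or either of OC.2- replicates 1 and 2 ended that call, at adjusted p of 0.0613 to 0.0741. Given the possible shared signal, Mug2 is no independent reading of the murinoglobulins.

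Pzp kept neither the pattern of A2m nor that of the Mug genes. Its intensity was 9803, 9312 and 8690 on the adult arrays, 4941, 5140 and 4813 on the OC.2- arrays and 684, 530 and 671 on the OC.2+ arrays. The groups did not overlap, and on the log2 scale the OC.2- cells stood nearer to adult than to OC.2+ cells. Pzp was 1.87-fold lower in OC.2- than in adult cells (log2 difference -0.90 ± 0.10, adjusted p = 8.72e-06). It was 7.95-fold lower in OC.2+ relative to OC.2- cells (-2.99 ± 0.10, adjusted p = 1.9e-10) and 14.8-fold lower than in adult cells (adjusted p = 2.62e-12). This profile was not particular to Pzp. In OC.2- against adult and OC.2+ against OC.2- cells, the neighbour Slc6a13 had log2 differences of -0.84 and -2.74, and the coagulation gene F10 -0.76 and -2.89. C3, the central complement protein and a thioester relative of A2m, was 1.39-fold lower in OC.2- than in adult cells (-0.48 ± 0.07, adjusted p = 0.000155) and 3.03-fold lower in OC.2+ relative to OC.2- cells (-1.60 ± 0.07, adjusted p = 2.48e-09). Beside these differences, all 11 measured hepatocyte markers were lower in OC.2+ relative to OC.2- cells (median log2 difference -1.26), or 10 lower and 1 higher after cyclic loess, as were all 9 measured endothelial markers (median -1.84). Against adult cells, OC.2- cells had 2 hepatocyte markers higher and 5 lower, or 2 and 9 after cyclic loess.

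Of the other measured neighbours of the cluster, Slc6a13, a taurine and GABA transporter gene on the A2m side, was 1.78-fold lower in OC.2- than in adult cells (log2 difference -0.84 ± 0.09, adjusted p = 3.93e-06). It was 6.66-fold lower in OC.2+ relative to OC.2- cells (-2.74 ± 0.09, adjusted p = 1.34e-10), so it kept neither the pattern of A2m nor that of the Mug genes. Iqsec3, a gene of inhibitory synapses next to it, was dim, with mean log2 intensities of 5.45 in adult, 5.76 in OC.2- and 5.59 in OC.2+ cells. Its difference of 0.30 ± 0.08 in OC.2- against adult cells (adjusted p = 0.00955) missed the threshold after quantile normalization (0.0818), median centring (0.102) and cyclic loess (0.0563).

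The receptor that clears protease-bound macroglobulins was lower in fetal cells. Lrp1 read 1321, 1589 and 1675 on adult, 538, 538 and 504 on OC.2- and 222, 194 and 203 on OC.2+ arrays, with no overlap between groups. It was 2.89-fold lower in OC.2- (log2 difference -1.53 ± 0.10, adjusted p = 3.88e-08) and 7.38-fold lower in OC.2+ (-2.88 ± 0.10, adjusted p = 2.65e-11) than in adult cells. Lrpap1, the chaperone that keeps new Lrp1 from binding its ligands too early, was 1.90-fold lower in OC.2- (adjusted p = 1.29e-06) and 2.93-fold lower in OC.2+ cells (adjusted p = 3.58e-09). Lrp2 (megalin), a larger relative of Lrp1, was 2.00-fold lower in OC.2- (adjusted p = 1.09e-06) and 2.02-fold lower in OC.2+ cells (adjusted p = 4.95e-07), and between the fetal groups its difference was -0.01 ± 0.09. Vldlr, a lipoprotein receptor of the same family, had log2 differences of 0.20 ± 0.10 and 0.17 ± 0.10 from adult cells (adjusted p = 0.11 and 0.152). Its first difference passed the threshold with array weights (adjusted p = 0.0299) or without OC.2- replicate 3 (0.0102).

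Hspa5, an endoplasmic reticulum chaperone that can bind activated A2m protein at the cell surface, was 0.24 ± 0.07 higher on the log2 scale in OC.2- than in adult cells (adjusted p = 0.0133). That call ended after median centring (adjusted p = 0.262) and cyclic loess (0.521). In OC.2+ cells Hspa5 was 1.60-fold lower than in OC.2- cells (adjusted p = 4.41e-06). It was also lower than in adult cells, at -0.43 ± 0.07 (adjusted p = 0.000151), but that call was lost after quantile normalization, at 0.0 (adjusted p = 0.986), and after cyclic loess, at -0.16 (adjusted p = 0.111). Calreticulin (Calr), a chaperone that can act with Lrp1 at the surface, had a difference of -0.06 ± 0.08 in OC.2- against adult cells (adjusted p = 0.514), which became 0.19 and passed the threshold after quantile normalization (adjusted p = 0.0446), and was 1.53-fold lower in OC.2+ than in adult cells (adjusted p = 1.09e-05). In all, 6 of the 9 listed receptor and chaperone genes were measured. Of these, 1 was higher and 3 were lower in OC.2- against adult cells, where 23.7% of all genes were higher and 20.9% lower. The split was 2 and 3 after quantile normalization and 0 and 3 after median centring or cyclic loess. Then 0 were higher and 5 lower in OC.2+ against adult cells, or 0 and 4 after quantile normalization or cyclic loess. In that comparison 32.0% of all genes were higher and 23.4% lower. The counts were 0 and 4 in OC.2+ against OC.2- cells, or 0 and 3 after cyclic loess. There 20.3% of all genes were higher and 18.2% lower. Over all genes the median log2 difference was 0.07, 0.11 and 0.04 in these comparisons, and the median over the receptor list was -0.50, -0.82 and -0.59.

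**Figure D2:**
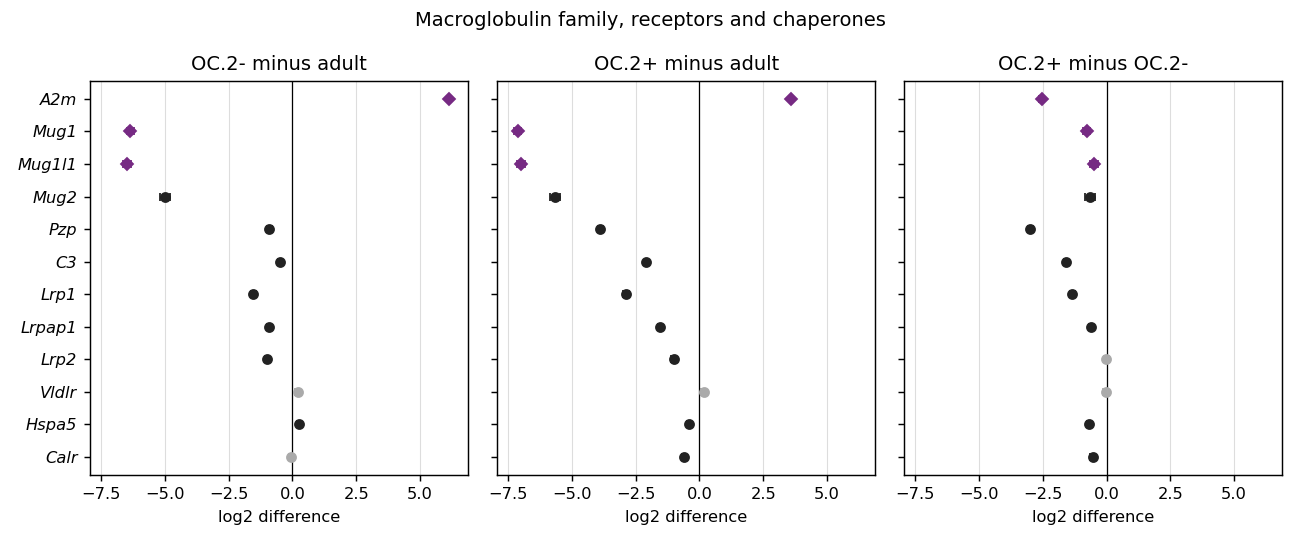
Log2 difference ± SE (horizontal axes) of family, receptor and chaperone genes in each of the 3 comparisons, from a fit over 9 arrays. Purple diamonds are A2m, Mug1 and Mug1l1, shown without a test, black points are genes called by limma and grey points are genes not called. A2m lies at 6.13 in OC.2- minus adult, opposite to Mug1 at -6.35 and Mug1l1 at -6.48, and every other family gene is on the negative side in each panel.

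A2m in the rat is a classic target of interleukin-6 signalling through Stat3, with glucocorticoid hormone as a partner. Of the 25 measured of 27 genes listed for this route, 6 were higher and 5 lower in OC.2- relative to adult cells (median 0.06). Both shares were close to those of all genes, 23.7% and 20.9%, so these counts are not a result about the route, and the genes below are given singly. The split was 10 and 4 after quantile normalization and 4 and 8 after median centring. Socs3, the feedback inhibitor that Stat3 induces, read 104, 143 and 131 on adult, 500.4, 501 and 595 on OC.2- and 153, 159 and 182 on OC.2+ arrays. These groups did not overlap and took the order of A2m. That order was not particular to Socs3. On adult, OC.2+ and OC.2- arrays, mean log2 intensity over stellate and mesenchymal markers was 6.57 to 6.76, 7.12 to 7.23 and 8.02 to 8.26. Over macrophage markers it was 6.81 to 6.91, 7.29 to 7.49 and 7.59 to 7.92. Socs3 was 4.25-fold higher in OC.2- than in adult cells (log2 difference 2.09 ± 0.12, adjusted p = 1.58e-08), 1.32-fold higher in OC.2+ than in adult cells (adjusted p = 0.0135) and 3.23-fold lower in OC.2+ relative to OC.2- cells (adjusted p = 1.17e-07). Lifr, a receptor subunit for leukaemia inhibitory factor, was 3.45-fold higher in OC.2- than in adult cells (adjusted p = 8.42e-08) and 4.30-fold lower in OC.2+ relative to OC.2- cells (adjusted p = 1.77e-08). Junb, a transcription factor gene of the early response, was 1.78-fold higher in OC.2- than in adult cells (adjusted p = 5.41e-05).

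Osmr, Fkbp5 and Cebpd, Osmr and Cebpd named after their values were seen, were also called higher in OC.2- than in adult cells. Their log2 differences were 0.67, 0.36 and 0.28 (adjusted p = 1.94e-05, 0.00689 and 0.0124). Fkbp5 was higher in OC.2+ cells too, by 0.92 against adult (adjusted p = 1.95e-06) and 0.56 against OC.2- cells (adjusted p = 0.000301). The genes that follow were lower or did not pass the test in OC.2- against adult cells. Il6st, the signalling subunit shared by receptors of this cytokine family, had a difference of -0.23 ± 0.09 in OC.2- against adult cells (adjusted p = 0.0546) and was 5.96-fold lower in OC.2+ relative to OC.2- cells (adjusted p = 2.58e-10). Stat3 itself, named after its values were seen, differed by -0.11 ± 0.09 in OC.2- against adult cells (adjusted p = 0.377) and was 1.61-fold lower in OC.2+ relative to OC.2- cells (adjusted p = 4.68e-05). The glucocorticoid receptor gene Nr3c1 was 2.40-fold lower in OC.2- (adjusted p = 3.6e-07) and 2.80-fold lower in OC.2+ than in adult cells (adjusted p = 3.27e-08). Cebpa and Cebpb, transcription factors of liver and acute-phase genes, were 2.20-fold and 2.36-fold lower in OC.2- than in adult cells (adjusted p = 5.21e-06 and 1e-05). Tsc22d3 and Jak1, named after their values were seen, were also called lower in OC.2- than in adult cells. Their log2 differences were -1.02 ± 0.20 and -0.49 ± 0.08 (adjusted p = 0.00123 and 0.000169). In OC.2+ against OC.2- cells 3 genes of the route were higher and 11 lower (median -0.22). Jak2, a kinase of cytokine receptors, was 2.37-fold higher (adjusted p = 2.39e-07) and oncostatin M (Osm), a cytokine of blood cells, 1.83-fold higher (adjusted p = 5.71e-05). In OC.2+ against adult cells 4 were higher and 11 lower (median -0.09). Shares of all genes were 32.0% higher and 23.4% lower there, and 20.3% and 18.2% in OC.2+ against OC.2- cells.

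The other positive acute-phase proteins did not, as a list, share the direction of A2m. Of 20 measured of 22 listed, 4 were higher and 12 lower in OC.2- relative to adult cells (median -1.09), or 7 and 12 after quantile normalization. Serpina3n, a serpin that rises in inflammation, read 8740, 8119 and 8334 on adult, 273, 281 and 281 on OC.2- and 59.7, 54.3 and 74.3 on OC.2+ arrays. It fell 30.2-fold in OC.2- (log2 difference -4.92 ± 0.10, adjusted p = 1.38e-12) and 135-fold in OC.2+ cells (-7.08 ± 0.10, adjusted p = 6.14e-14) against adult cells. Orm1, the acid glycoprotein of rat plasma, was 40.9-fold lower (adjusted p = 3.8e-12) and ceruloplasmin (Cp), the copper carrier, 8.31-fold lower in OC.2- cells (adjusted p = 1.47e-09). Timp1, an inhibitor of matrix metalloproteinases, moved up instead, with 60.5, 63.8 and 88.8 on adult, 782, 717 and 783 on OC.2- and 152, 120 and 140 on OC.2+ arrays. It was 10.9-fold higher in OC.2- than in adult cells (adjusted p = 3.71e-10) and took the same order of groups as A2m. The means of the stellate and mesenchymal and of the macrophage markers took that order too. Kng2 and Kng2l1, rat kininogen genes, were 1.79-fold and 1.44-fold higher in OC.2- than in adult cells (adjusted p = 8.15e-06 and 0.00336). In OC.2+ against adult cells 2 of the list were higher and 18 lower (median -3.03), and in OC.2+ against OC.2- cells 4 were higher and 16 lower (median -2.22). Among those 16, Itih4 fell most, by 8.52-fold (adjusted p = 4.99e-11). Among those 4, Lbp, which carries bacterial lipopolysaccharide, was 4.24-fold higher in OC.2+ relative to OC.2- cells (adjusted p = 4.93e-09). For scale, 23.7% of the whole array was called up and 20.9% down for OC.2- minus adult. The array-wide values were 32.0% up and 23.4% down for OC.2+ minus adult. For OC.2+ minus OC.2- they were 20.3% up and 18.2% down.

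All 12 listed negative acute-phase genes, the class to which the murinoglobulins belong, were measured. Against adult cells, 2 were higher and 7 lower in OC.2- cells (median -0.45), and all 12 were lower in OC.2+ cells (median -2.35). Igf1, the circulating growth factor of postnatal life, fell most in both, by 21.1-fold in OC.2- (log2 difference -4.40 ± 0.11, adjusted p = 6.97e-12) and by 57.4-fold in OC.2+ cells (-5.84 ± 0.11, adjusted p = 2.46e-13). Factor XII (F12) was 2.46-fold lower (adjusted p = 1.65e-07) and the lipoprotein gene Apoa4 2.29-fold lower in OC.2- cells (adjusted p = 7.84e-07). Apoa1, of high-density lipoprotein, was 1.62-fold higher (adjusted p = 0.000168) and Serpina6, the corticosteroid carrier, 1.45-fold higher in OC.2- cells (adjusted p = 0.00749). Between the fetal groups 11 of the 12 were lower in OC.2+ cells (median -2.21), or 10 lower and 1 higher after cyclic loess, and Apoa4 was not called, at 0.07 ± 0.10 (adjusted p = 0.69). Beside these counts, 18.2% of all genes were lower between the fetal groups. Against adult cells 20.9% were lower and 23.7% higher in OC.2- cells, and 23.4% lower in OC.2+ cells.

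Protease inhibitors of plasma outside the family split in OC.2- against adult cells, with 7 of 21 measured higher and 11 lower (median -0.35). Serpina3c, a rat serpin, fell 108-fold in OC.2- (log2 difference -6.75 ± 0.13, adjusted p = 5.33e-13) and 125-fold in OC.2+ cells (-6.97 ± 0.13, adjusted p = 2.01e-13), with a difference of -0.22 ± 0.13 between the fetal groups (adjusted p = 0.226). Hrg, a histidine-rich glycoprotein that binds plasminogen, was 6.17-fold lower in OC.2- (adjusted p = 4.38e-10) and 65.2-fold lower in OC.2+ than in adult cells (adjusted p = 1.45e-13). Timp3, a matrix-bound inhibitor, was 3.38-fold higher (adjusted p = 3.01e-07) and kininogen Kng1 2.08-fold higher in OC.2- than in adult cells (adjusted p = 6.4e-07). In OC.2+ cells 3 were higher and 16 lower than in adult cells (median -2.62), and 0 were higher and 18 lower than in OC.2- cells (median -2.16). The shares of all genes, higher and lower, were 23.7% and 20.9% in OC.2- against adult cells. For OC.2+ cells they were 32.0% and 23.4% against adult, and 20.3% and 18.2% against OC.2- cells.

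Proteases are what macroglobulins trap. Of the 24 listed endopeptidases, all measured, 10 were higher and 5 lower in OC.2- relative to adult cells (median 0.04), or 9 and 7 after median centring. Adamts1, a protease of matrix proteoglycans, was 6.74-fold higher (adjusted p = 5.04e-09), and Mmp2, a gelatinase, 2.03-fold higher (adjusted p = 1.29e-06). In OC.2+ against OC.2- cells 5 were higher and 13 lower (median -0.46). The 3 highest by the naming rule were granulocyte enzymes: Elane (neutrophil elastase) at 19.9-fold (adjusted p = 3.26e-10), Mmp8 (neutrophil collagenase) at 8.33-fold (adjusted p = 1.08e-09) and Prtn3 (proteinase of neutrophil granules) at 8.19-fold (adjusted p = 1.34e-10). On the granulocyte marker list, which shares these 3 genes, 10 of 11 measured genes were higher in the same comparison (median 4.22). The 3 lowest were liver-made zymogens of plasma, prothrombin (F2) at 8.40-fold lower (adjusted p = 1.34e-10), prekallikrein (Klkb1) at 8.35-fold lower (adjusted p = 1.92e-10) and factor X (F10) at 7.42-fold lower (adjusted p = 2.85e-10). In OC.2+ against adult cells 12 were higher and 8 lower (median 0.24), or 8 and 8 after quantile normalization, median centring or cyclic loess. Among all genes, 32.0% were higher and 23.4% lower in that comparison. The shares were 23.7% and 20.9% in OC.2- against adult cells, and 20.3% and 18.2% in OC.2+ against OC.2- cells.

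A2m protein also binds growth factors and cytokines. Of 14 measured of 15 listed, 4 were higher and 5 lower in OC.2- relative to adult cells (median 0.09), 4 and 5 in OC.2+ than in adult cells (median 0.13) and 3 and 4 in OC.2+ relative to OC.2- cells (median -0.17). The shares of all genes were 23.7% and 20.9%, 32.0% and 23.4%, and 20.3% and 18.2% in the same order. Nothing is read from these counts, and the genes below are given singly. Tgfb1, a growth inhibitor of hepatocytes, was 2.41-fold higher in OC.2- (adjusted p = 4.67e-07) and 6.92-fold higher in OC.2+ than in adult cells (adjusted p = 7.51e-11). Inhba, which encodes the activin A subunit, was 10.2-fold lower in OC.2- (adjusted p = 1.15e-09) and 4.31-fold lower in OC.2+ than in adult cells (adjusted p = 4.31e-08). Vegfa, the endothelial growth factor, was 4.31-fold lower in OC.2+ than in adult cells (adjusted p = 3.72e-09).

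**Figure D3:**
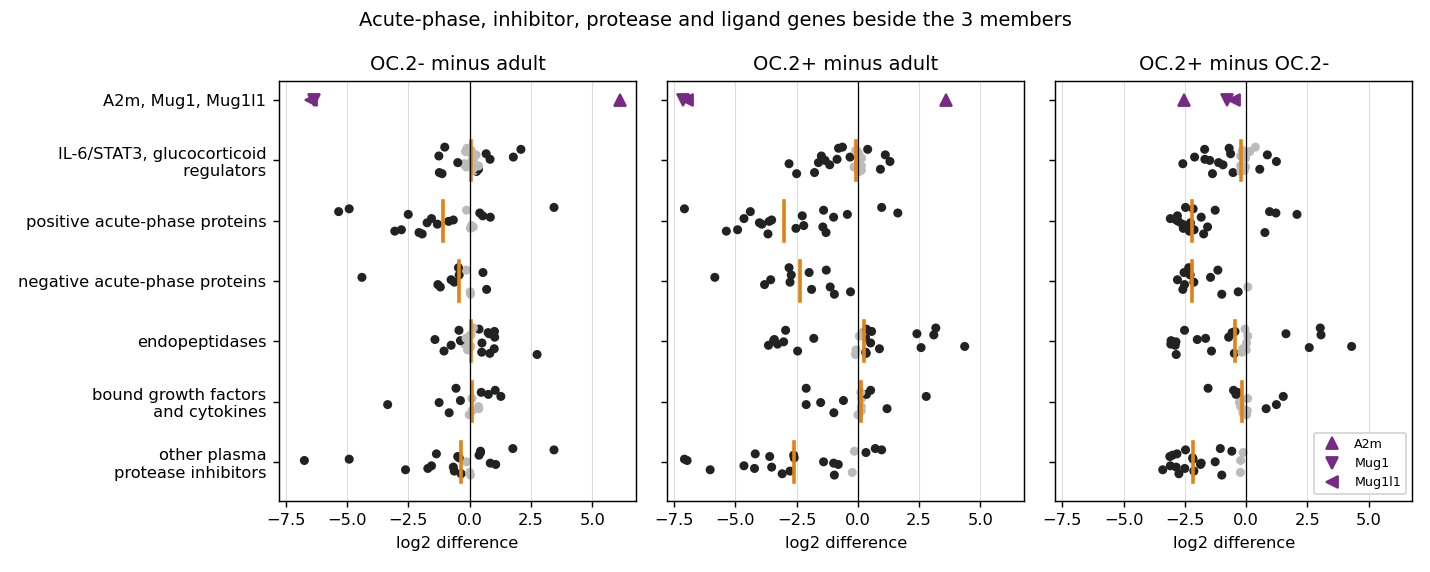
Log2 differences (horizontal axes) of the measured genes of 6 lists in each of the 3 comparisons, with black points for genes called by limma, grey points for genes not called and orange bars for list medians. Purple symbols in the top row are A2m, Mug1 and Mug1l1, shown without a test. Positive acute-phase genes have a median of -1.09 in OC.2- minus adult, while A2m lies at 6.13.

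Likeness of pattern was measured as the root mean square difference between log2 profiles over the 9 arrays, each gene centred on its own mean. The points share their arrays and fall in 3 groups, so the measure mainly reflects group means. Mug1 and Mug1l1 were 0.17 apart, less than either was from any other gene, and Mug2 was 0.70 and 0.72 from them. A2m was 5.52 from Mug1, 5.53 from Mug1l1 and 3.43 from Pzp. Igf2, the fetal growth factor, was nearest to A2m at 0.16, with mean log2 intensities of 6.09 in adult, 12.54 in OC.2- and 9.84 in OC.2+ cells. The next were Hdc, the enzyme that makes histamine, at 0.32, and Grb10, an imprinted adaptor that restrains growth, at 0.46. Gpc3, a surface proteoglycan of fetal liver, and Dlk1, a transmembrane protein of hepatoblasts, followed at 0.48 each.

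Genes nearest to the murinoglobulins were mostly enzymes, beside the serpin gene Serpina3c. Apart from each other, Cyp2e1, the ethanol-oxidising P450, was nearest to both, at 0.27 from Mug1 and 0.24 from Mug1l1. Its mean log2 intensity was 12.64 in adult, 6.34 in OC.2- and 6.01 in OC.2+ cells. For Mug1, Serpina3c was at 0.35, the P450 genes Cyp3a18 and Cyp3a2 at 0.36 and 0.37, and the steroid dehydrogenase Hsd3b5 at 0.38. For Mug1l1, the dehydrogenase gene Dhrs7l1 was at 0.31, Cyp3a2 at 0.32, and the methyltransferase-like gene Mettl7b and Serpina3c at 0.33 each.

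**Figure D4:**
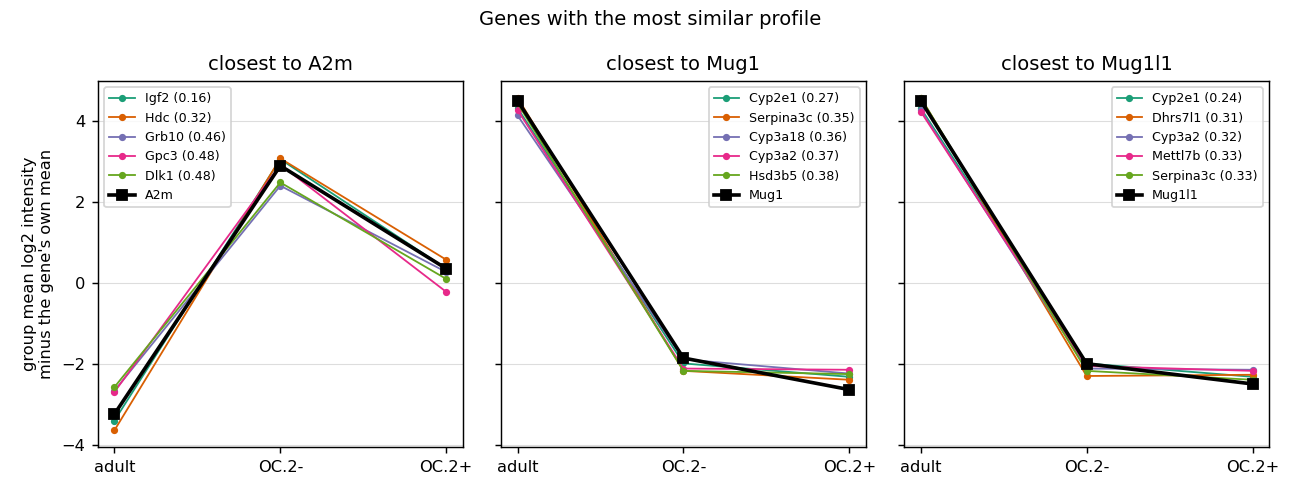
Group mean log2 intensity minus the mean of the 3 group means (vertical axis) for A2m, Mug1 and Mug1l1 (black squares) and for the 5 genes nearest to each, leaving out A2m, Mug1 and Mug1l1 themselves (coloured lines), with the distance in log2 units over 9 arrays in brackets. Igf2, at 0.16, nearly covers A2m, and Cyp2e1, at 0.27 and 0.24, follows both Mug genes.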

How the data were processed

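The deposited table holds intensities on a linear scale for 28826 probe sets. The submitters' processing notes name Partek 6.6 and RMA, with no role or order, and RMA as usually run makes array distributions alike and shrinks differences of dim genes. The sources used here name no genome build. Log2 was taken of the intensity values the authors deposited. A single gene symbol was given to 15209 rows, and the row with the highest mean stood for a gene. Group means were fitted with limma 3.58.1 (R 4.3.3) over all 9 arrays, with adjusted p-values by Benjamini and Hochberg's method over 14497 genes, 2-sided, called under 0.05. The fit was tested on simulated data. Members and lists were chosen with earlier results of these data known. Apart from members, the text names all measured family and receptor genes, neighbours within 5 entries, the 5 nearest profiles of each member, and from each other list up to 3 called genes each way per comparison by size whose arrays do not overlap; some of these were left out. Samples were treated as unpaired. Correlations of deviations from group means were -0.196 to 0.118 for equal replicate numbers and -0.146 to 0.268 for unequal ones. With 3 arrays a group this cannot exclude that samples were paired. Alternatives covered scaling, dim-gene filters, probe set choice, variance model, array weights, samples in the fit, a replicate block, a threshold of 0.01 and leaving out each replicate. Promoters are RefSeq's, from GRCr8, for 4 of 5 genes looked up.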

Additional observations from a re-analysis of the deposited data

How the results depend on the processing

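The 9 log2 differences of A2m, Mug1 and Mug1l1 kept their direction under every alternative run. In OC.2+ against adult cells, A2m moved from 3.59 to 3.82 after quantile normalization and 3.83 after cyclic loess, and Mug1l1 from -6.98 to -6.78 after cyclic loess. In OC.2+ against OC.2- cells, A2m moved from -2.54 to -2.26 and -2.38 under those settings. Leaving out 1 replicate gave 6.06 to 6.23, 3.52 to 3.69 and -2.59 to -2.52 for A2m in OC.2- against adult, OC.2+ against adult and OC.2+ against OC.2- cells, -6.45 to -6.20, -7.21 to -7.04 and -0.93 to -0.68 for Mug1, and -6.66 to -6.35, -7.10 to -6.85 and -0.64 to -0.33 for Mug1l1. Of the 116 genes of the 8 lists, 79, 95 and 87 were called in these comparisons, and 77 to 82, 89 to 97 and 85 to 89 without 1 replicate. With the replicate block the counts were 80, 96 and 87. The main counts are 68.1%, 81.9% and 75% of the list genes. Of all 14497 genes, 6458, 8034 and 5576 were called in the same comparisons. The shares of all genes, higher and lower, were 23.7% and 20.9%, 32.0% and 23.4%, and 20.3% and 18.2%. In OC.2- against adult cells 32 list genes were higher and 47 lower, or 41 and 42 after quantile normalization. Over all genes, higher ones were 53.1% of calls in OC.2- against adult cells and 34.6% after median centring, and 57.8% and 42.5% in OC.2+ against adult cells. The median log2 difference of all genes in OC.2+ against adult cells was 0.108, and -0.027 after median centring.

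Signs turned for 5 genes. Lrp2 in OC.2+ against OC.2- cells read 0.03 with array weights or without OC.2+ replicate 3 and 0.07 without OC.2- replicate 3, and Vldlr 0.0 and 0.04 without OC.2- replicates 1 and 2. After quantile normalization Hspa5 in OC.2+ against adult cells, called lower at -0.43, was 0.0, Calr in OC.2- against adult cells 0.19 and Iqsec3 in OC.2+ against adult cells -0.0, the last -0.01 after cyclic loess. Leaving out 1 replicate gave -0.08 to 0.07 for Lrp2 and -0.14 to 0.04 for Vldlr in that comparison of the fetal groups. The cause was not tested. With 3 arrays a group, no detection call and possible shared signal between murinoglobulin genes, precision is limited for dim genes.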
